A study of Homo sapiens with 6 samples.

Results

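Kinesins are motor proteins that use ATP to walk along microtubules, most of them toward the plus end. In dividing cells 1 set of kinesins builds the spindle, moves chromosomes and closes the intercellular bridge, and another set carries vesicles, mitochondria and other cargo through the cytoplasm at all times. In many promoters of genes expressed at the end of the cell cycle, a CHR element (cell cycle genes homology region) close to the start of transcription keeps the gene repressed in resting and early cycling cells, and CCAAT boxes upstream of it bind the activator NF-Y. The kinesin motor genes were taken from the expression table of MDA-MB-231 cells as all rows whose symbol is KIF or KIFC followed by a number and, where there is one, a letter from A to C. This gave 41 of the 74852 genes listed, and 36 of them averaged 10 normalized counts or more across the 6 libraries and entered the test. Genes of kinesin-binding proteins, such as KIF1BP, were not members, and neither was CENPE, a kinesin without KIF in its symbol. No row of the expression table carried the symbol KIF18B, which was thus not analysed here.

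MDA-MB-231 is a mesenchymal-like human cell line of triple-negative breast cancer (TNBC). It was transfected in 2 rounds with a pool of siRNAs against the kinase NEK2 (si-NEK2, 3 libraries) or with control siRNAs that have no target (si-CTRL, 3 libraries), and harvested, per the sample records, 24 h after the second round. The study's methods state another interval. The comparison asks how silencing NEK2 modulates the transcriptome. A single pool of siRNAs stood for NEK2 silencing in all si-NEK2 libraries, and the records of the si-CTRL samples refer to other sample records while those of si-NEK2 do not. No source states that both groups were handled in the same batch, so that batch and treatment cannot be told apart. Nothing states that the 3 libraries of a group came from separate experiments, and p-values measure the spread between these libraries, which may be technical.

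Between 52625492 and 87454509 reads per library were assigned to genes, and 1 read was worth between 0.818 and 1.25 normalized counts, that is reads divided by the size factor of the library. NEK2 fell from 3702, 3323 and 3290.2 normalized counts in si-CTRL to 284, 362 and 388 in si-NEK2, with 10.0% of the control mean left (log2 fold change -3.32, SE 0.12, adjusted p = 1.86e-06). The libraries separated by treatment on the first principal component (61.7% of the variance), and si-CTRL replicate 1 stood apart on the second (16.2%). VIM was high (group means of 157264 and 138731 normalized counts), and ESR1, PGR and CDH1 stayed at or below 15.2, 1.64 and 5.42. ERBB2 was however present, at 2822 ± 544 normalized counts in si-CTRL and 4019.7 ± 80.8 in si-NEK2 (SD, n = 3), in a row shared with MIR4728. The leukocyte marker CD3E did not exceed 1.64, PTPRC ranged from 2.5 to 25.4 and the endothelial marker PECAM1 from 3.61 to 16.2. In these bulk libraries, a change in the number of cells in a phase or state cannot be told apart from a change in RNA per cell.

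Most kinesin genes of cell division rose in si-NEK2 cells, and those of transport changed in both directions. Of the 12 division genes tested, 9 rose at an adjusted p of at most 0.05 and none fell, with means that reached between 115% and 148% of control. Among the 16 transport genes tested, 5 rose and 6 fell, and these included the largest decrease of the family, KIF21B, which was left at 33.8% of control. None of the 8 tested genes of the cilium and other functions passed the adjusted threshold. Over the 36 genes, 14 rose and 6 fell, against 21.8% and 21.3% of all genes tested (43.1% in either direction). With each library scaled to an equal total these became 7 and 9, with 5 of 12 division and 2 of 16 transport genes higher, with upper quartile scaling 12 and 9, and without si-NEK2 replicate 2 the rises numbered 9, of which 3 were transport genes. At the thresholds of the study (unadjusted p not above 0.05, fold change not below 1.5), 1 kinesin gene was higher (KIF13A) and 4 were lower (KIF21B, KIFC3, KIF5C and KIF6), against 8.23% and 14.3% of all genes (22.5% in either direction). These counts changed with the library left out, with 0 higher without si-CTRL replicate 3 or si-NEK2 replicate 2 or 3, 2 higher without replicate 1 of either group, and 2 lower without si-CTRL replicate 1 or si-NEK2 replicate 2. The groups did not overlap in 16 genes that were higher and 8 that were lower in si-NEK2, against 28.2% and 26.9% of all genes.

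**Figure D1:**
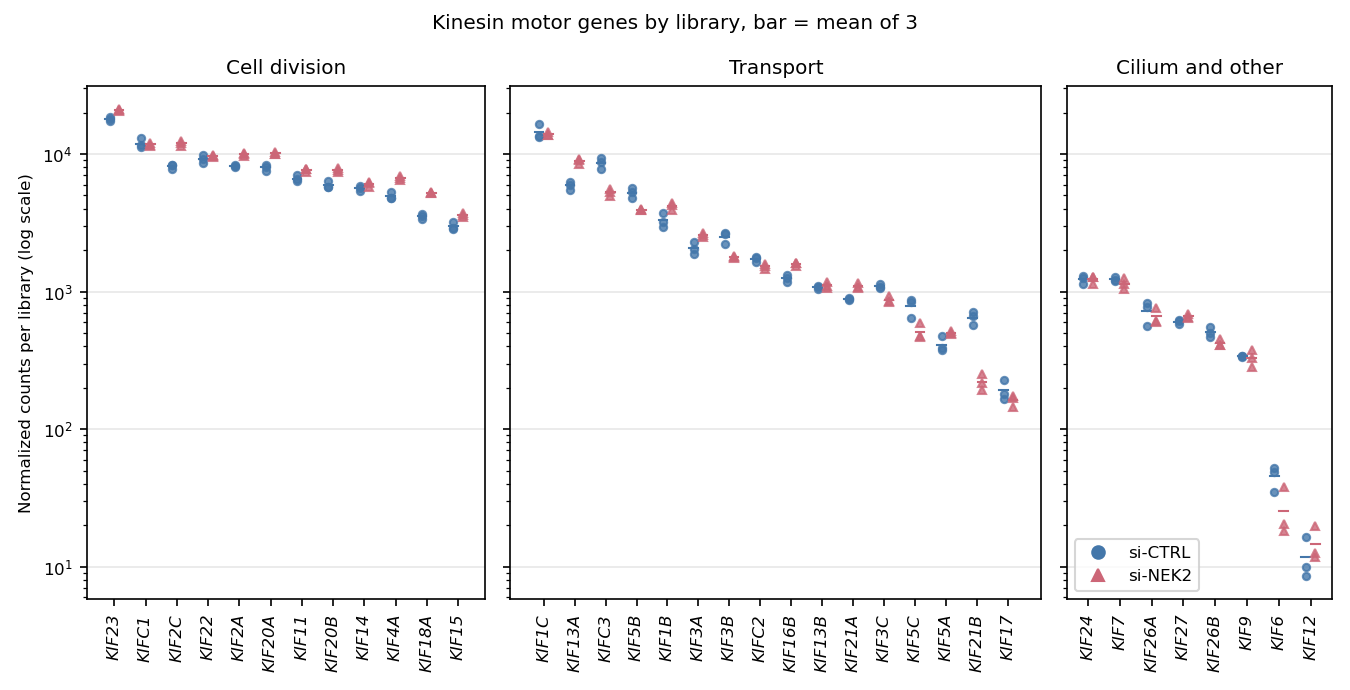
Normalized counts of the 36 tested kinesin genes in each library (vertical axis, log scale), in 3 panels for cell division, transport, and cilium and other genes; circles are si-CTRL, triangles si-NEK2, and bars the mean of 3. The si-NEK2 points of KIF18A and KIF2C lie above all si-CTRL points, and those of KIF21B, KIFC3 and KIF3B below.

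**Figure D2:**
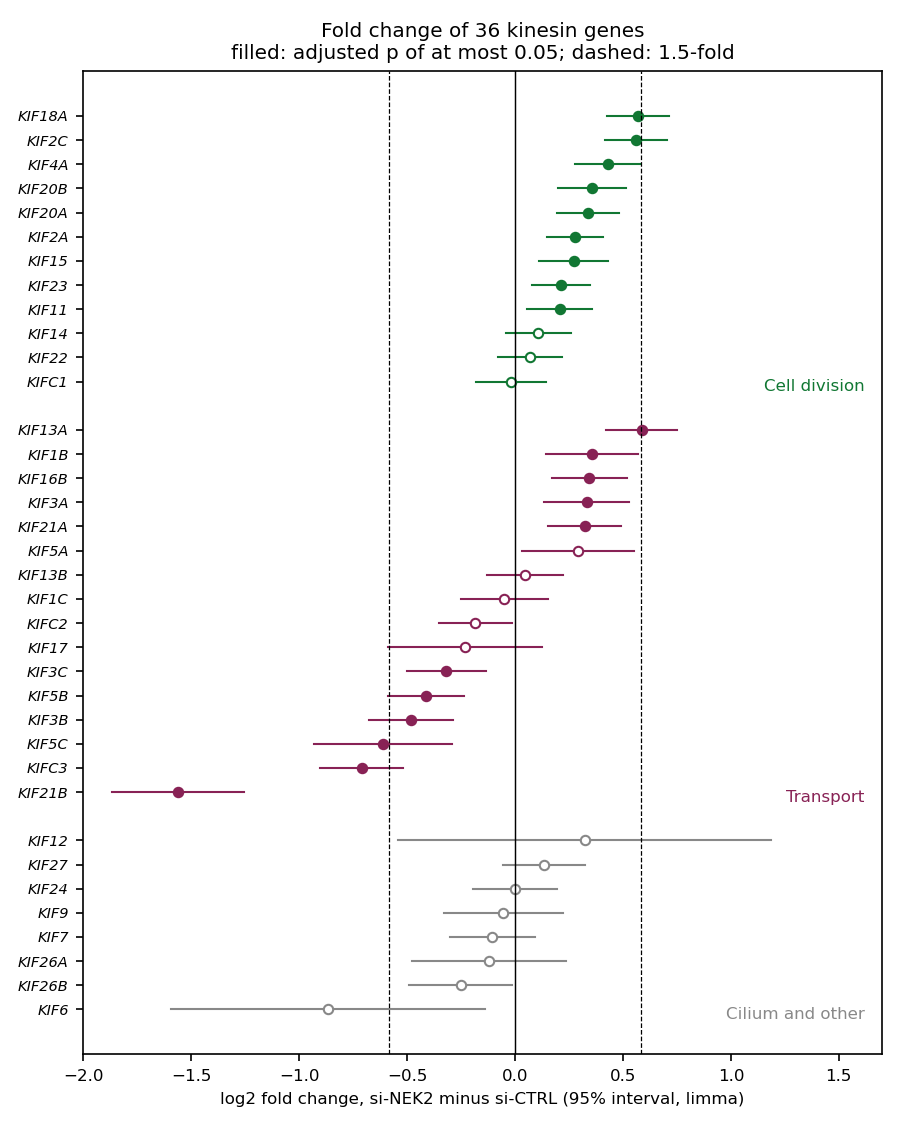
log2 fold change of each tested kinesin gene (si-NEK2 minus si-CTRL, horizontal axis) with its 95% confidence interval from limma; filled points have an adjusted p of at most 0.05, and dashed lines mark a fold change of 1.5. Cell division genes lie between -0.02 and 0.57, transport genes between -1.56 and 0.59.

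The CHR is shown first, because it was found in most division genes and in few other kinesin genes. It was searched as TTTGAA or TTCGAA on both strands of the RefSeq promoter windows (GRCh38.p14, from 250 bases before to 50 bases after each annotated start), so that it reads TTCAAA where it lies on the other strand. All 12 tested division genes have a window, and 9 of them hold a CHR, compared with 1 of 11 transport genes (KIF5B), 1 of 6 cilium and other genes (KIF24) and 16.4% of the 34943 windows of all genes. Kinesin genes are counted with a motif in any of their windows, whereas the shares of all genes are per window. Windows were lacking for the tested transport genes KIF5A, KIF13B, KIF21B, KIFC2 and KIFC3, and for KIF26B and KIF27. CCAAT was found in 9 of 12 division, 4 of 11 transport and 3 of 6 other genes, compared with 34.6% of all windows, and 8 of 12 division genes held both motifs, compared with 6.4% of all windows. The CHR of each of these genes is given below in 30 bases, on the strand of the gene and with the CHR in capitals, in the order of the fold changes.

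KIF18A (chr11:28108149-28108178, minus strand): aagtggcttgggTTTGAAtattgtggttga
KIF4A (chrX:70290058-70290087, plus strand): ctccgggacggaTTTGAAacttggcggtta
KIF20B (chr10:89701602-89701631, plus strand): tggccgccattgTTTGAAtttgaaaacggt
KIF15 (chr3:44761747-44761776, plus strand): ccaagcgccaaaTTCAAAtttgcggccatc
KIF23 (chr15:69414282-69414311, plus strand): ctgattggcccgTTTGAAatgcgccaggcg
KIF11 (chr10:92593090-92593119, plus strand): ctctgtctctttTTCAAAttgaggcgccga
KIF14 (chr1:200620733-200620762, minus strand): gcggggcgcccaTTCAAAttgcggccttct
KIF22 (chr16:29790712-29790741, plus strand): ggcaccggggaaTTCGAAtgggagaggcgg
KIFC1 (chr6:33391815-33391844, plus strand): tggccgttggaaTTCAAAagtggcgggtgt

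In KIF20B a second copy follows the first without a gap and is left in lower case. The first base of the CHR lay between 55 bases before and 31 bases after the annotated start in these 9 genes, apart from KIF22, in which the same element is also counted from a second annotated start, at -244. KIF20A held CCAAT boxes without a CHR, KIF15 a CHR without CCAAT, and KIF2C and KIF2A neither. Both motifs were found in genes that rose and in genes that did not pass the test: 6 of the 9 division genes that rose held a CHR and 6 a CCAAT box, whereas KIF14, KIF22 and KIFC1, which did not pass the test, held both. A match of letters is not a measured site of binding, and the genes differ in their number of annotated starts.

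**Figure D3:**
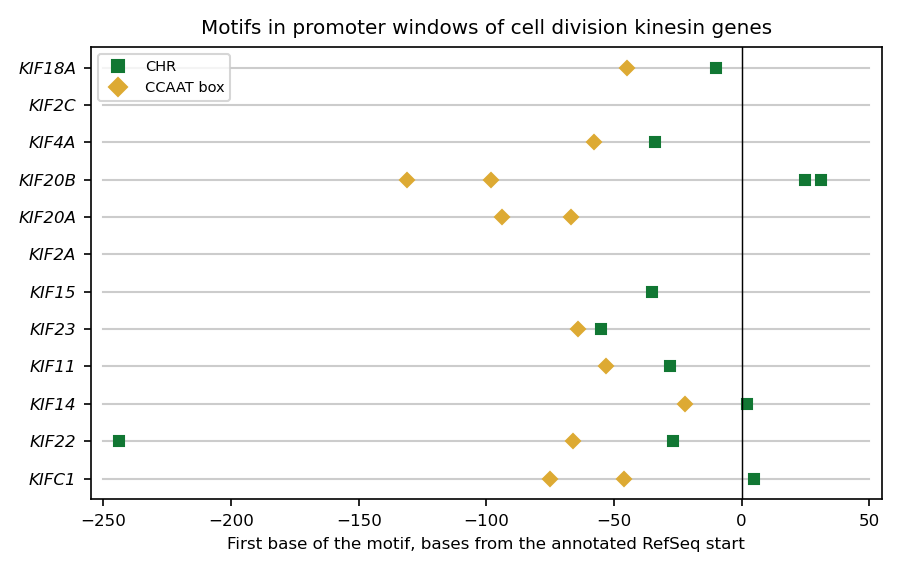
Position of the first base of each CHR (squares) and CCAAT box (diamonds) in the promoter windows of the 12 tested division genes, in bases from the annotated RefSeq start (horizontal axis), with genes from the highest to the lowest fold change. Squares lie near the start, between -55 and 31 apart from the second start of KIF22, and KIF2C and KIF2A hold no symbol.

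KIF18A and KIF2C, which act at the plus ends of spindle microtubules, showed the largest increases among division genes. KIF18A, which limits chromosome oscillations at the metaphase plate, gave 3693, 3395 and 3537 normalized counts in si-CTRL and 5307, 5245 and 5216 in si-NEK2. All si-NEK2 libraries were above all si-CTRL libraries, and the mean rose from 3542 ± 149 to 5256 ± 46.3 (SD, n = 3), or 148% of control (log2 fold change 0.57, SE 0.06, adjusted p = 0.000189). KIF2C, or MCAK, depolymerizes microtubules and corrects faulty attachments at centromeres. Its values were 8389, 7732 and 8276 in si-CTRL and 11546, 12025 and 12409 in si-NEK2. The groups were again apart, with means of 8132 ± 351 and 11994 ± 433 (log2 fold change 0.56, SE 0.06, adjusted p = 0.000217). Both genes stayed just under the fold change of 1.5 of the study and passed the adjusted threshold in 17 of 17 alternative analyses. KIF2A, a depolymerase of the same subfamily that acts mainly at spindle poles, gave 8118, 8297 and 8229 normalized counts in si-CTRL and 9652, 10026 and 10213 in si-NEK2. This was a smaller rise, to 121% of control, without overlap (log2 fold change 0.28, SE 0.06, adjusted p = 0.00476). The third gene of this subfamily, KIF2B, was listed at 0 in every library.

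Kinesins that sit on chromosome arms or condense and push chromosomes were divided. KIF4A, a chromokinesin that also shortens the central spindle at anaphase, gave 5266, 4825 and 4784 normalized counts in si-CTRL and 6459, 6875 and 6689.6 in si-NEK2. Its groups did not overlap and its mean rose from 4958 ± 267 to 6675 ± 208 (log2 fold change 0.43, SE 0.07, adjusted p = 0.00104), in an interval that overlaps the row of DLG3. KIF22, the chromokinesin Kid, generates the ejection force that pushes chromosome arms away from the poles. It gave 9769, 9215 and 8646 in si-CTRL and 9529, 9662 and 9799.7 in si-NEK2, with overlapping groups and a log2 fold change of 0.07 (95% interval from -0.08 to 0.22, adjusted p = 0.416).

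The midzone and cytokinesis kinesins mostly rose, and by less than KIF18A and KIF2C. KIF20A, or MKLP2, brings the chromosomal passenger complex to the midzone, and its values were 8281, 8123 and 7590.1 normalized counts in si-CTRL and 9960.0, 10368 and 9989.6 in si-NEK2. KIF20B, or MPP1, which is required to complete cytokinesis, gave 6398, 5729 and 5809 in si-CTRL and 7368, 7953 and 7631 in si-NEK2. KIF23, or MKLP1, the motor of the centralspindlin complex, had the highest mean level per kb of exon of all kinesin genes (4785 normalized counts per kb in si-CTRL and 5547 in si-NEK2). By the exon lengths used, KIFC1 was above KIF23 in si-CTRL replicate 1. Per library, KIF23 gave 17301, 18711 and 18035 normalized counts in si-CTRL and 20572, 20927 and 21159 in si-NEK2. None of these 3 genes overlapped between groups, with log2 fold changes of 0.34 for KIF20A (SE 0.06, adjusted p = 0.00255), 0.36 for KIF20B (SE 0.07, adjusted p = 0.00329) and 0.21 for KIF23 (SE 0.06, adjusted p = 0.0176). KIF20A overlaps the row of CDC23. KIF14, which recruits citron kinase to the midbody, did not pass the test, with 5427, 5829 and 5672 in si-CTRL and 5753, 6317 and 6167 in si-NEK2 (log2 fold change 0.11, 95% interval from -0.04 to 0.26, adjusted p = 0.226).

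Of the kinesins that keep spindle poles apart or focus them, KIF15 and KIF11 rose and KIFC1 did not pass the test. KIF11, or Eg5, slides antiparallel microtubules to make the spindle bipolar, and gave 7007, 6360.4 and 6550.1 normalized counts in si-CTRL and 7349.5, 7822 and 7797 in si-NEK2 (log2 fold change 0.21, SE 0.07, adjusted p = 0.0318). KIF15, which can share this task with KIF11, gave 3193, 2873 and 2913 in si-CTRL and 3505, 3604 and 3727 in si-NEK2 (log2 fold change 0.27, SE 0.07, adjusted p = 0.0129). In both genes the lowest si-NEK2 library was above the highest si-CTRL library. KIFC1, or HSET, a motor directed to the minus end that clusters extra centrosomes in cancer cells, was second in mean level per kb in si-CTRL (4409.6 normalized counts per kb). It gave 13008, 11597 and 11191 in si-CTRL and 11647, 11493 and 12135 in si-NEK2, and its groups overlapped (log2 fold change -0.02, 95% interval from -0.18 to 0.15, adjusted p = 0.858). The rises of KIF11 and KIF23 were the least stable, and passed the adjusted threshold in 6 and 9 of the 17 alternative analyses.

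Summed over the list, division kinesins gave between 91239.6 and 95849.7 normalized counts in si-CTRL and between 108652 and 112937 in si-NEK2, or 119% of control. Their median log2 fold change was 0.28, compared with 0.01 for all genes tested, and 11 of 12 genes were above 0. None of the division genes passed both thresholds of the study, whereas 9 had a limma p of at most 0.05 before adjustment, and edgeR and DESeq2 called none by both thresholds either. With an equal total per library, which lowers the median of all genes to -0.11, 5 division genes passed the adjusted threshold instead of 9. Cell cycle markers moved with this list: 7 of 10 rose and none fell (21.8% and 21.3% of all genes), their sum ranged from 147896 to 160119 in si-CTRL and from 166415 to 174481 in si-NEK2, and BUB1, CCNB1 and CCNA2 had log2 fold changes of 0.66, 0.58 and 0.56. MKI67, TOP2A and UBE2C did not pass the test, at -0.25, -0.02 and -0.08. The part of the cell cycle in the rise of division kinesins was not tested.

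**Figure D4:**
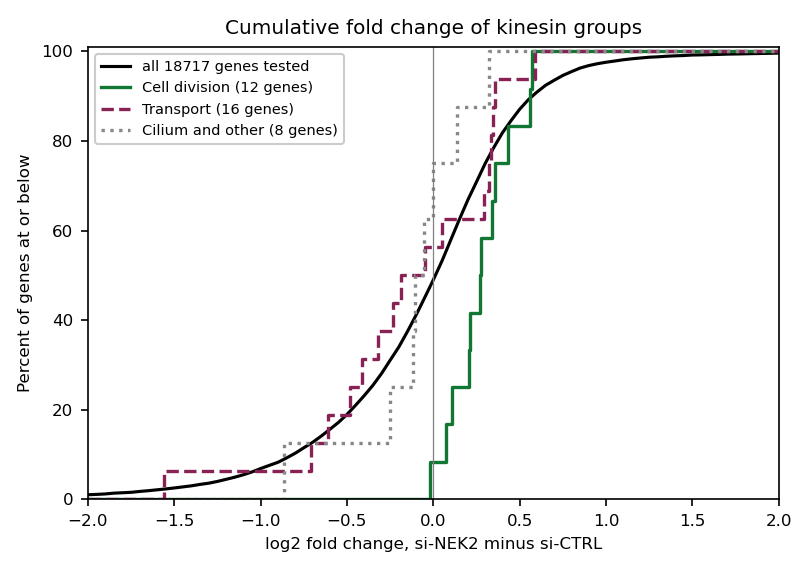
Percent of genes (vertical axis) at or below each log2 fold change (si-NEK2 minus si-CTRL, horizontal axis) for all 18717 genes tested and for the 12 division, 16 transport and 8 cilium and other kinesin genes. The division curve leaves 0% at -0.02 and reaches 100% at 0.57, with a median of 0.28, while the transport curve lies on both sides of the curve of all genes.

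Proteins that work with division kinesins at the spindle and midzone were fixed as a separate list of 13 genes, of which 5 rose, 2 fell and 6 did not pass the test (median log2 fold change 0.18), while 21.8% of all genes rose and 21.3% fell. Their sums overlapped between groups, from 133128 to 150771 normalized counts in si-CTRL and from 141460 to 146345 in si-NEK2. The overlap came from si-CTRL replicate 1 (150771), while the other si-CTRL libraries, at 133862 and 133128, were below every si-NEK2 library. RACGAP1, the partner of KIF23 in centralspindlin, and ECT2, the exchange factor it recruits, had log2 fold changes of 0.31 (adjusted p = 0.0033) and 0.42 (adjusted p = 0.000535). AURKB and BIRC5, of the chromosomal passenger complex, stood at 0.31 and 0.46, whereas INCENP stood at -0.23 and did not pass the test (adjusted p = 0.109). TPX2, which brings Aurora A to spindle microtubules, and PLK1 fell, at -0.40 (adjusted p = 0.00667) and -0.23 (adjusted p = 0.0366). CENPE, the kinetochore kinesin left out by the rule on symbols, did not pass the test, at -0.03 (adjusted p = 0.779).

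Transport kinesins changed in both directions, also within a subfamily. KIF21B, a motor that also restrains microtubule growth, was the most reduced kinesin gene. It lies at chr1:200938514-200992828 (hg19) and gave 711, 665 and 568 normalized counts in si-CTRL and 216, 250.3 and 191 in si-NEK2. Its groups lay far apart, and the mean fell from 648 ± 73.4 to 219 ± 29.8 (SD, n = 3; log2 fold change -1.56, SE 0.13, adjusted p = 5.54e-05). In all 17 alternative analyses it was called, with log2 fold changes between -1.69 and -1.44. Its paralog KIF21A moved the other way, from 865 to 894 in si-CTRL to 1068 to 1147 in si-NEK2 (log2 fold change 0.32, SE 0.08, adjusted p = 0.00823). Within each library, the level of KIF21A per kb was thus 1.88, 1.95 and 2.33 times that of KIF21B in si-CTRL and 7.40, 6.51 and 8.99 times in si-NEK2. KIF21B is also the nearest kinesin neighbour of the division gene KIF14, with 348651 bases between them, and KIF14 did not pass the test.

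KIFC3, at chr16:57792129-57897074 (hg19), encodes a motor directed to the minus end that carries apical vesicles and anchors microtubules at epithelial junctions, and shares its row with MIR6772. It gave 7761, 8785 and 9404 normalized counts in si-CTRL and 5576, 5301 and 4953 in si-NEK2. No si-NEK2 library reached the si-CTRL libraries, and the mean fell from 8650.0 ± 829 to 5277 ± 312, or 61% of control (log2 fold change -0.71, SE 0.09, adjusted p = 0.000284), a call made in all 17 alternative analyses. KIFC2, a minus-end motor of neurons, had values from 1637 to 1788 in si-CTRL and from 1461 to 1584 in si-NEK2, which did not overlap, but did not pass the adjusted threshold (log2 fold change -0.18, adjusted p = 0.0753).

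The KIF5 genes encode the heavy chains of conventional kinesin, which carries mitochondria, vesicles and mRNA granules. KIF5B, the widely expressed heavy chain, was the highest of them per kb, and fell from between 4756 and 5711 normalized counts in si-CTRL to between 3896 and 3993 in si-NEK2 (log2 fold change -0.41, SE 0.08, adjusted p = 0.00292). KIF5C, best known from neurons, lies at chr2:149632792-149883273 (hg19) and gave 866, 837 and 647 in si-CTRL and 474, 469 and 592 in si-NEK2. Its groups came close to each other without overlap, and the mean fell from 783 ± 119 to 512 ± 69.7 (log2 fold change -0.61, SE 0.14, adjusted p = 0.00766). KIF5C kept its adjusted p in 17 of 17 alternative analyses but its fold change of 1.5 in 12. The call was lost with quantile scaling, and without si-CTRL replicate 1 or 2 or si-NEK2 replicate 1 or 2, with log2 fold changes between -0.56 and -0.53. KIF5A, the third heavy chain, ranged from 375 to 476 in si-CTRL and from 489 to 519.6 in si-NEK2 and did not pass the adjusted threshold (log2 fold change 0.29, adjusted p = 0.0678). KIF5B was between 9.90 and 14.6 times as high as KIF5A per kb in si-CTRL and between 7.46 and 7.95 times in si-NEK2.

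KIF3A and KIF3B pair with each other and with the adaptor KIFAP3 in the heterotrimeric motor of intraflagellar transport and vesicle traffic, and KIF3B can also pair with KIF3C. KIF3A rose, from between 1873 and 2283 normalized counts in si-CTRL to between 2507 and 2686 in si-NEK2 (log2 fold change 0.33, SE 0.09, adjusted p = 0.0134). KIF3B fell, from between 2216 and 2661 to between 1761 and 1800.2 (log2 fold change -0.48, SE 0.09, adjusted p = 0.00213). KIF3C fell as well, from between 1061 and 1137 to between 845 and 927 (log2 fold change -0.32, SE 0.08, adjusted p = 0.0117). Per kb, KIF3A was below KIF3B in each si-CTRL library, at 0.981, 0.670 and 0.736 of it, and above it in each si-NEK2 library, at 1.39, 1.42 and 1.33. In normalized counts without the length, KIF3A was above KIF3B in si-CTRL replicate 1 (2283 against 2216). The order in that library thus rests on the exon lengths used, whereas the change of the ratio between groups does not. These ratios within libraries were chosen after the values had been seen and carry no test. KIFAP3 itself did not pass the test (log2 fold change 0.03, adjusted p = 0.865), and KIF17, a homodimeric relative, ranged from 164 to 229 in si-CTRL and from 144 to 174 in si-NEK2 (adjusted p = 0.267), in a locus that overlaps the far more abundant row of DDOST and PINK1-AS. KIF3A overlaps a row of IL5 and SHROOM1.

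**Figure D5:**
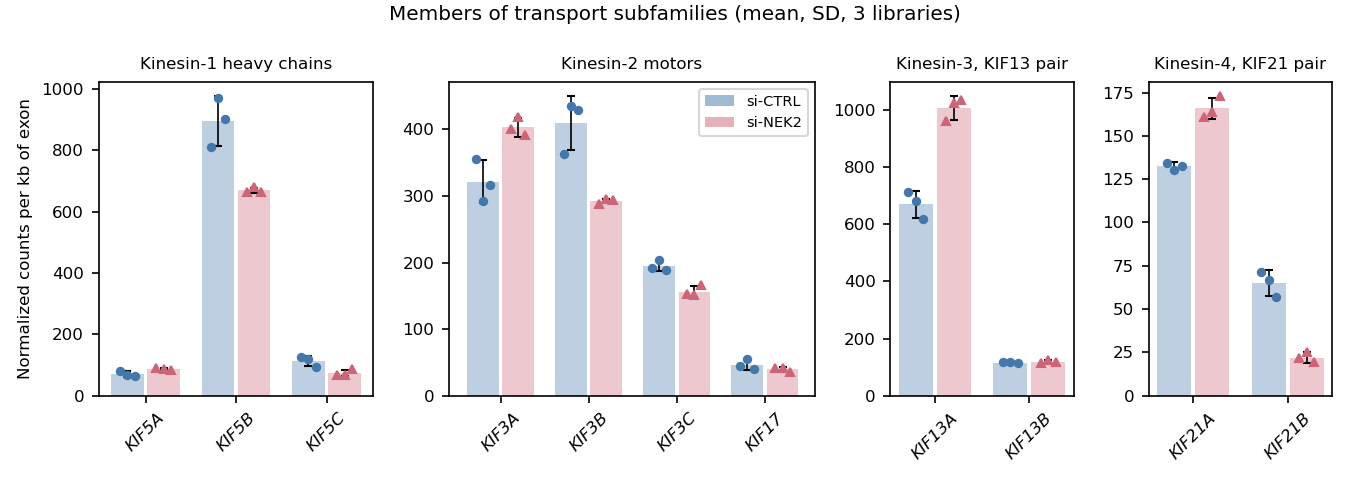
Normalized counts per kb of exon (vertical axis, from 0 in each panel) of paralogs in 4 transport subfamilies; bars are means of 3 libraries with SD, and points are single libraries of si-CTRL (blue) and si-NEK2 (red). By the exon lengths used, KIF3A is below KIF3B in si-CTRL and above it in si-NEK2, and KIF21A and KIF21B move apart.

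KIF13A was the only kinesin gene to pass both thresholds upward. Its product carries recycling endosomes and melanosome cargo, and it lies at chr6:17759415-17987858 (hg19). It gave 6280.4, 6001 and 5468 normalized counts in si-CTRL and 8471, 9044 and 9136 in si-NEK2, so that the lowest si-NEK2 library was above the highest si-CTRL library. The mean rose from 5917 ± 413 to 8883 ± 360.5 (log2 fold change 0.59, SE 0.07, adjusted p = 0.000322). Since the fold change lay at the threshold, KIF13A passed both in 9 of 17 alternative analyses, and was lost without si-CTRL replicate 3 or si-NEK2 replicate 2 or 3, with log2 fold changes of 0.53 to 0.57, with edgeR and DESeq2, and with 3 other scalings, while its adjusted p passed in all 17. KIF13B did not pass the test (log2 fold change 0.05, adjusted p = 0.653), and the ratio of KIF13A to KIF13B per kb moved from between 5.50 and 6.06 to between 8.11 and 8.73.

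Other motors of this subfamily were KIF1B, which carries mitochondria and synaptic vesicle precursors, KIF16B, which moves early endosomes, and KIF1C. KIF1B rose from between 2962 and 3710.5 normalized counts in si-CTRL to between 3919.8 and 4444 in si-NEK2 (log2 fold change 0.36, SE 0.09, adjusted p = 0.0147). KIF16B rose from between 1184 and 1327 to between 1536 and 1616 (log2 fold change 0.34, SE 0.08, adjusted p = 0.00648). KIF1C, which moves integrin-containing vesicles, did not pass the test, with 14561 ± 1829.9 in si-CTRL and 14000.4 ± 363 in si-NEK2 (log2 fold change -0.05, adjusted p = 0.685). Its mean level per kb was the highest among transport genes in both groups, at 1839 in si-CTRL against 1756 for KIFC3. By the exon lengths used, KIFC3 was however above KIF1C in si-CTRL replicates 2 and 3. Over all transport kinesins the median log2 fold change was -0.12, and the sums ranged from 48935 to 51567 normalized counts in si-CTRL and from 47415 to 48756 in si-NEK2. Per kb of exon, division genes made up between 75.2% and 75.8% of all kinesin signal in si-CTRL and between 79.7% and 80.2% in si-NEK2, and transport genes between 21.8% and 22.4% and between 17.7% and 18.1%.

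Light chains and adaptors, which link the motors to cargo, were a separate list of 15 genes, with 5 that rose, 2 that fell and 8 that did not pass the test (median log2 fold change 0.05), while 21.8% of all genes rose and 21.3% fell. KLC3, a light chain of conventional kinesin, rose from a mean of 20.6 to 67.5 normalized counts (log2 fold change 1.65, SE 0.24, adjusted p = 0.000739), while KLC2 fell at a far higher level, from 8345 to 6798 (log2 fold change -0.30, adjusted p = 0.0111). The JIP scaffolds, which tether conventional kinesin to vesicles and JNK signalling, differed in level and direction. MAPK8IP2 stood at 1.44 (adjusted p = 0.000834), from a low mean of 53.3 to 144.3 normalized counts. MAPK8IP1 stood at -0.58 (adjusted p = 0.00106), from 1260 to 841. MAPK8IP3 and SPAG9 did not pass the test, at -0.12 (adjusted p = 0.294) and 0.11 (adjusted p = 0.211). KIF1BP, which binds kinesin motor domains and keeps them off microtubules, rose by 0.44 on the log2 scale (adjusted p = 0.00102). The row of KLC1 is shared with APOPT1 and stood at -0.05.

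Tested genes of the cilium and other functions averaged from 13.2 (KIF12) to 1229 (KIF24) normalized counts and mostly overlapped between groups. KIF6, at chr6:39297766-39693181 (hg19), gave 52.5, 34.9 and 48.5 normalized counts in si-CTRL and 37.6, 18.1 and 20.3 in si-NEK2. The highest si-NEK2 library was above the lowest si-CTRL library. KIF6 passed the thresholds of the study (log2 fold change -0.87, SE 0.32), but its adjusted p was 0.0558. The call was kept in 11 of 16 alternative analyses and was lost with quantile scaling. It was also lost without si-CTRL replicate 1 or 3, or without si-NEK2 replicate 2 or 3, at log2 fold changes between -0.81 and -0.67. KIF7 and KIF27, related to Hedgehog signalling and motile cilia, stood at -0.10 and 0.14 (adjusted p = 0.364 and 0.228), and KIF26A and KIF26B, which lack ATPase activity, at -0.12 and -0.25 (adjusted p = 0.575 and 0.0842). KIF24, which restrains cilium formation in cycling cells, had a log2 fold change of 0.00, with a 95% interval from -0.19 to 0.20, and overlaps the row of UBAP1. KIF9 stood at -0.05 (adjusted p = 0.749) and overlaps KIF9-AS1 and KLHL18.

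At the lower end, KIF12 was just inside the mean of 10 normalized counts, at 13.2 (log2 fold change 0.32, 95% interval from -0.54 to 1.19), and KIF25 just outside, at 6.46. KIF25 had 7, 5 and 17 reads in si-CTRL and 4, 4 and 2 in si-NEK2. KIF4B, an intronless copy of KIF4A with which it may share reads, had between 0 and 8 reads per library, and KIF1A, the neuronal motor of synaptic vesicle precursors, between 0 and 7. KIF2B and KIF19 were listed at 0 throughout, which at this depth allows up to 3 reads, or between 2.46 and 3.75 normalized counts, per library, for counting error only. In 12 of the 36 tested genes the hg19 interval overlaps that of another row with a mean of at least 10, and no source states how reads of overlapping genes were assigned. None of the 5 kinesin genes called by the thresholds of the study was among them.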

How the data were processed

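PolyA-enriched RNA of 3 si-CTRL and 3 si-NEK2 libraries of MDA-MB-231 cells was sequenced. The authors deposited a gene signal, that is the reads of a gene over the library's DESeq2 size factor (normalized counts), with Human FAST DB annotation and hg19 coordinates; replicates were not pooled. The submitters' processing notes name STAR 2.4.0, SAMtools, Picard, FastQC and DESeq2 without a role. The counting program is not given in the sources used here, and the records name a stranded kit but no strand setting. Deposited values were whole multiples of 1 read in 100% of cases (tolerance 0.01 reads), so that reads could be recovered (52625492 to 87454509 per library). Of the rows, 51665 carry no symbol.

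The 18717 genes that averaged 10 normalized counts or more were fitted by limma 3.58.1 (R 4.3.3) on the log2(value + 1) scale, using eBayes and an intensity trend, and p-values were adjusted over all of them (Benjamini-Hochberg). On this scale the change of low genes is understated. "Rose" and "fell" mean an adjusted p of at most 0.05, and regulated means p of at most 0.05 with a fold change of at least 1.5. Levels per kb use the exon length of GENCODE 29 (basic set), matched by symbol for all 41 members. This length is the union of exons over the protein-coding transcripts of a gene, not that of the transcript expressed. Ranks between genes and shares per kb depend on this choice. Members, lists and tests were chosen with earlier results of these data known. Values per library are given for regulated members and tested division genes, and others are given by range. As alternatives, the pseudocount was set to 0.1 or 5, the filter dropped or raised to 50, values scaled by upper quartile, to equal totals or by quantiles, the trend left out, reads tested with edgeR 4.0.16 or DESeq2 1.42.0, the replicate number taken as a block, and 1 library at a time dropped, besides a fold change of at least 2 and adjusted p-values. Adjusted counts for the division and transport lists were added after the data had been seen. Scripts were tested on simulated data. RefSeq promoter windows were found for 33 of 41 members. No protein sequences were used.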

Additional observations from a re-analysis of the deposited data

How the results depend on the processing

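NEK2, KIF21B and KIFC3 were called in all 17 alternative analyses. The 1 kinesin gene regulated upward became 0 with upper quartile, equal total or quantile scaling, edgeR, DESeq2 or a fold change of at least 2, and 0 to 2 with 1 library left out. The 4 regulated downward became 5 with equal totals, where KIF3B was also called, and 5 without the filter. They became 3 with the filter at 50 or by adjusted p, 2 with quantile scaling, 1 with a fold change of at least 2, and 2 to 3 with 1 library left out. By adjusted p, 14 higher and 6 lower became 7 and 9 with equal totals and 12 and 9 with upper quartile scaling; leaving out 1 library gave 9 to 15 higher, the lowest without si-NEK2 replicate 2, and 5 to 7 lower. Regulated division genes numbered 0 to 1 higher with 1 library left out, with KIF18A called without si-CTRL replicate 1 and KIF2C without si-NEK2 replicate 1. By adjusted p, division genes that were higher numbered 5 with equal totals and 6 to 9 with 1 library left out, of which 6 without si-NEK2 replicate 2 or 3; transport genes that were higher numbered 2 with equal totals and 3 to 6 with 1 library left out, of which 3 without si-NEK2 replicate 2. Equal totals moved the median of all genes from 0.01 to -0.11, and with them 11 of 12 division genes were above that median; with quantile scaling 9 of 12 were, with a division median of 0.18 and a median of all genes of 0.05.

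Some genes that did not pass the test changed sign. With equal totals KIF14, KIF22, KIF13B and KIF24 stood at -0.021, -0.057, -0.081 and -0.13, with upper quartile scaling KIF13B and KIF24 at -0.018 and -0.065, with quantile scaling KIF22 and KIF9 at -0.044 and 0.11, and KIF24 at -0.0101 with edgeR and -0.0108 with DESeq2. With 1 library left out, KIF1C ranged from -0.11 to 0.052, KIF9 from -0.15 to 0.047, KIFC1 from -0.063 to 0.045 and KIF24 from -0.053 to 0.051. The replicate numbers did not pair the libraries (correlations of deviations of -0.09, 0.05 and -0.15, none of the 6 libraries closest to its own number). With the replicate block 12 kinesin genes were higher and 7 lower by adjusted p, 1 and 4 were regulated, 7 division genes were higher, and NEK2 stood at -3.32. At this depth KIF25, KIF4B, KIF1A, KIF2B and KIF19 could not be compared.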

Other observations

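Cytoplasmic dynein carries cargo toward the minus end, opposite to most kinesins, and is activated by dynactin. Of 19 tested genes of these complexes 6 rose, 2 fell and 11 did not pass the test, while 21.8% of all genes rose and 21.3% fell. Their median log2 fold change was 0.03. The light chain DYNLL2 had the largest change, from a mean of 8085 to 17176 normalized counts (log2 fold change 1.13, SE 0.19, adjusted p = 0.00162). DYNC1H1, the heavy chain that holds the motor domain, fell from 37762 to 28253 (log2 fold change -0.42, adjusted p = 0.00903), and the light chain DYNLT3 fell by 0.56 on the log2 scale (adjusted p = 0.00486). The light intermediate chain DYNC1LI2 and the dynactin filament subunit ACTR1A rose, by 0.39 and 0.45 (adjusted p = 0.00125 and 0.000622). DCTN1, which holds dynactin to the motor, stood at 0.01 (adjusted p = 0.899).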
